A study of Mus musculus with 8 samples.

Results

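The genes described here are 9 marker genes of Paneth cells: Lyz1, Pla2g2a, Mmp7, Defa17, Defa24, Defa30, Ang4, Itln1 and Mptx2. They were chosen by name, with earlier results of these data known, and make up 9 of the 21888 genes against which they were set. Each was located by its RefSeq annotation on the mouse genome build GRCm38 (mm10), and acetylated chromatin was looked for at its ends, in its body and within 50 kb on each side. The gene body with both flanks is called the window of the gene. Peaks within 1 kb of either end of a gene were said to mark that gene.

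The peaks came from CUT&Tag. In this assay an antibody bound to a histone mark tethers a transposase, which cuts out the DNA around the mark for sequencing. The marks were acetylation of histone H3 at lysine 27 (H3K27ac) and at lysine 9 (H3K9ac), both found at active promoters and the first also at active enhancers. The material was small intestinal crypts of male C57BL/6J mice aged 9 weeks, taken apart into single cells and labelled as epithelial cells of the small intestine. The question the study's title poses is how fasting, the microbiome and chromatin are linked in the small intestine. Mice were Fed, or Fast for 24 h, and either had no tetracycline, (-Tetra), or had it for 21 days, (+Tetra). The 4 groups, Fed (-Tetra), Fast (-Tetra), Fed (+Tetra) and Fast (+Tetra), shared strain, sex and age. The antibody label names mouse IgG beside H3K27ac and rabbit IgG beside H3K9ac.

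Each of the 8 samples, 1 per group and mark, came with 2 peak lists. They are numbered as replicates 1 and 2, but only in the deposited names. The labels do not say whether lists 1 and 2 came from different mice, so every p-value below measures the spread between lists, which may be technical. The H3K27ac lists held 32392 to 68545 peaks and the H3K9ac lists 17249 to 99050. The shortest list was a Fed list and the longest a Fast (-Tetra) list in both marks. Read depth was unknown. Defining genes of intestinal epithelium were marked throughout: all 10 of the list that holds Epcam, Cdh1, Vil1 and Cdx2 in every H3K27ac list, and 9 or 10 of them in every H3K9ac list. Of 10 genes of other tissues, such as Alb and Ttn, 0 or 1 was marked in an H3K27ac list and 1 to 4 in an H3K9ac list.

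Paneth cells sit at the base of small intestinal crypts, next to the stem cells. They store granules of antimicrobial proteins, which they release into the crypt, and they supply Wnt, Notch and growth factor signals to the neighbouring stem cells. Lysozyme, secretory phospholipase, alpha-defensins, angiogenin 4, intelectin and mucosal pentraxin are among the granule products, and matrilysin, encoded by Mmp7, cuts the precursors of mouse alpha-defensins into their active form.

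Few of the marker genes carried either mark at their ends. In H3K27ac, lists 1 and 2 marked 0 and 1 of the 9 genes in Fed (-Tetra), 3 and 1 in Fast (-Tetra), 0 and 1 in Fed (+Tetra), and 1 and 0 in Fast (+Tetra). The H3K9ac lists marked 0 and 3 in Fed (-Tetra), 1 and 2 in Fast (-Tetra), 1 and 0 in Fed (+Tetra), and 2 and 1 in Fast (+Tetra). No list of either mark thus reached more than 3 of 9, while 42.9% to 50.7% of all genes were marked in an H3K27ac list and 41.1% to 53.2% in an H3K9ac list. None of the 9 was marked in all 8 lists of a mark, which 33.6% of all genes were in H3K27ac and 21.1% in H3K9ac. Ang4, Itln1, Defa17, Defa30, Pla2g2a and Mptx2, 6 of the 9, were marked in none of the 8 H3K27ac lists, as were 39.4% of all genes. In H3K9ac the unmarked genes were Itln1, Defa17, Defa30 and Mptx2, against 25.2% of all genes.

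At the ends of the marker genes, the difference between feeding states depended on which lists were counted. An average of 0.5 of them was marked per Fed H3K27ac list and 1.25 per Fast list, a difference of 0.75 with an SD between lists of a group of 0.935. The difference was -0.50 without the lists numbered 1, 2.0 without the lists numbered 2, and 2.0 when a peak within 2.5 kb counted as marking a gene. In H3K9ac the averages were 1 and 1.5, a difference of 0.5 with an SD of 1.22. With all lists and 1 kb, both differences were smaller than the spread between lists. Mmp7 and Defa24 were marked in more Fast than Fed H3K27ac lists, as were 13.2% of all genes, and none in more Fed than Fast lists, against 9.44% of all genes. In H3K9ac, Ang4, Defa24 and Pla2g2a had more Fast lists (23.8% of all genes) and Mmp7 had more Fed lists (20.7%). None of the 9 was marked in every Fast and no Fed list, or the reverse, a pattern that 0.0959% and 0.0137% of all genes had in H3K27ac and 0.0777% and 0.0411% in H3K9ac.

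The windows showed more. In each of the 4 Fed lists 3 windows held an H3K27ac peak: those of Itln1 and Pla2g2a in every Fed list, that of Mmp7 in list 1 of Fed (-Tetra) and that of Lyz1 in the other three. In the Fast lists a peak was present in 8 and 6 windows in (-Tetra) and in 8 and 5 windows in (+Tetra). The difference of 3.75 windows had an SD between lists of 1.27. No Fed list overlapped a Fast list in this count. Over all genes the share of windows with an H3K27ac peak was 73.4% to 76.8% in Fed lists and 74.0% to 88.5% in Fast lists. With lists cut to equal length by score, the difference between feeding states was 2.25 windows, with 2 to 3 windows in Fed and 3 to 6 in Fast lists. With the upper part of each list by score (above its median) it was 1.5 windows, with 2 in every Fed list and 2 to 5 in Fast lists, so that the states then met in both settings. In H3K9ac the Fed lists had peaks in 3, 5, 6 and 7 windows and the Fast lists in 8, 7, 8 and 5, so the states overlapped. Itln1 and Pla2g2a had a peak in the window in all 8 H3K27ac lists (68% of all genes) and Itln1 in all 8 H3K9ac lists (66.3%). No H3K9ac window of the 9 lacked a peak in every list (2.22% of all genes), and none had one in all 4 Fast lists and 0 Fed lists (0.525%).

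**Figure D1:**
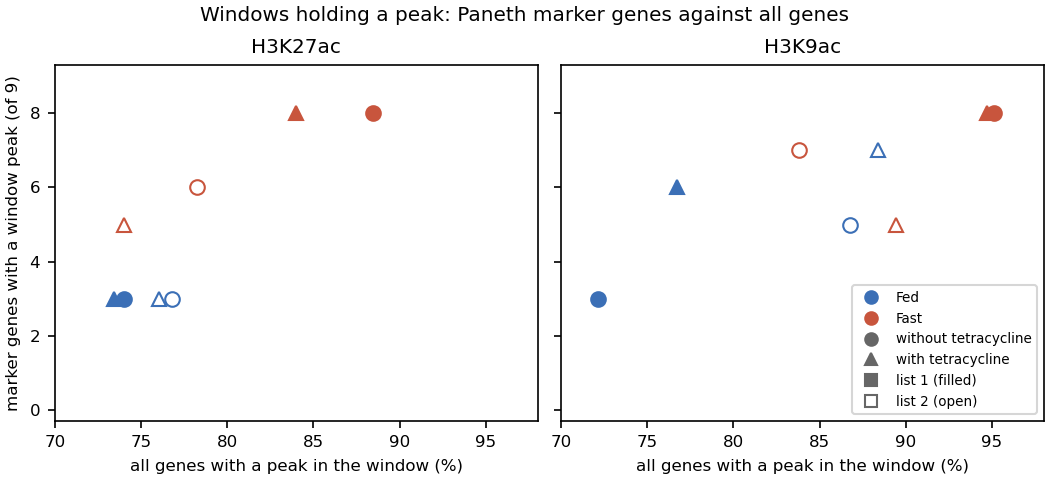
Number of the 9 marker gene windows with a peak (vertical axis) against the percent of all gene windows with a peak (horizontal axis, starting at 70%), 1 point per peak list, for H3K27ac (left) and H3K9ac (right). Blue is Fed and red Fast, circles are without and triangles with tetracycline, filled symbols are lists numbered 1 and open symbols lists numbered 2. The 4 Fed H3K27ac lists all sit at 3 windows and the Fast lists at 5 to 8, while the H3K9ac lists of both states overlap.

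The length of window covered by peaks was tested for each gene by an exact two-sided permutation test that reassigned feeding state among the lists of each tetracycline state. It allows 36 arrangements and a smallest p of 0.0556. No gene could therefore pass 0.05. In H3K27ac the covered length was higher in Fast for 8 of the 9 marker genes and 0 for Mptx2 in both states, with a median difference of 0.936 kb. The same comparison gave a higher Fast mean in 73.6% of all genes and a median of 0.431 kb. Every Fast list lay above every Fed list, within both tetracycline states, for Mmp7 and Defa24, as it did for 8.51% of all genes. The reverse held for none of the 9 and for 0.265% of all genes. In H3K9ac, 8 of the 9 had a higher Fast mean and Mptx2 a lower one, with a median difference of 0.605 kb against 0.480 kb over all genes, and only Ang4 had every Fast list above every Fed list of the same tetracycline state (5.38% of all genes; the reverse, none and 0.429%).

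**Figure D2:**
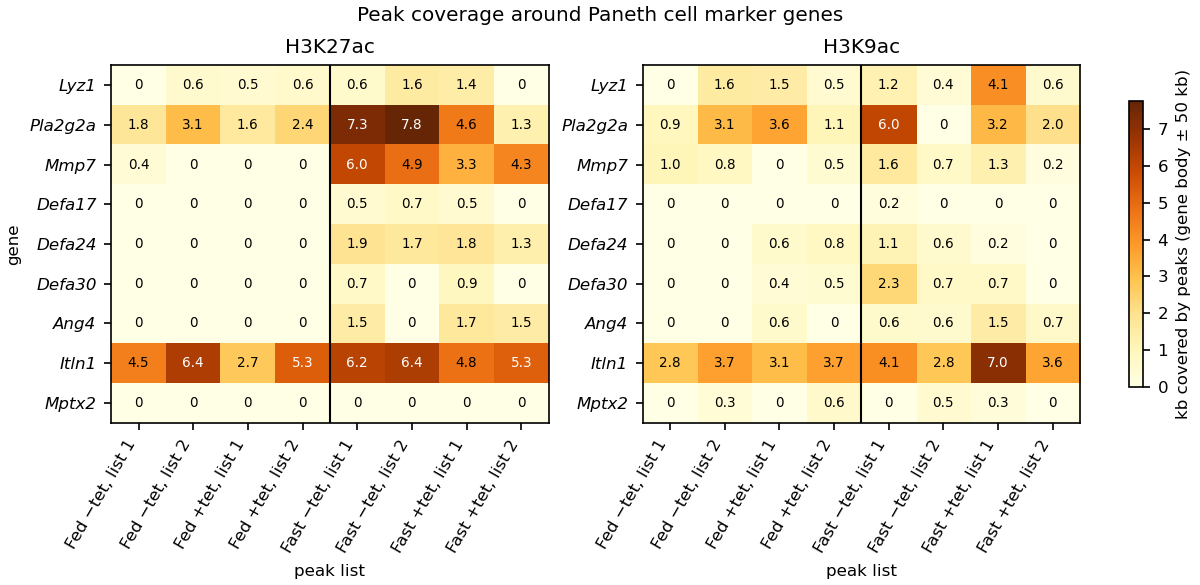
Length of window (gene body and 50 kb on each side) covered by peaks, in kb, for each marker gene (rows) in each peak list (columns), H3K27ac on the left and H3K9ac on the right. Colour and printed number give the covered length, and the vertical line separates Fed from Fast lists. Mmp7 and Defa24 have H3K27ac rows near 0 in Fed and above 1 kb in every Fast list, while Itln1 is covered in all lists and Mptx2 in no H3K27ac list.

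Mmp7 (gene ID 17393, chr9:7692090-7699585, plus strand) encodes matrilysin, the protease that activates alpha-defensins, and showed the widest separation of the feeding states among the marker genes. In Fed lists 1 and 2 its window had 0.417 and 0 kb under H3K27ac peaks in (-Tetra) and 0 kb in both lists in (+Tetra). In Fast lists 1 and 2 the covered length was 5.99 and 4.88 kb in (-Tetra) and 3.30 and 4.33 kb in (+Tetra). Every Fast list was thus far above every Fed list, and the single Fed peak, with a score of 58.4, lay 50.6 kb downstream of the start. The difference between the means, 0.104 kb in Fed and 4.62 kb in Fast, was 4.52 kb, at the smallest p the exact permutation test allows (0.0556), with a Benjamini-Hochberg adjusted p of 0.633 over all 21888 genes. It was larger than that of 97.6% of all genes, and amounted to 5.23 kb without and 3.82 kb with tetracycline.

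The Mmp7 peaks fell at the same places in list after list. Regions are formed here by joining peaks of the 8 lists of a mark that overlap by at least 1 bp. 3 regions in the Mmp7 window had an H3K27ac peak in all 4 Fast lists and in no Fed list. The first, chr9:7652319-7653341, was 39.3 kb upstream of the start, inside the neighbouring gene Mmp20, which encodes another matrix metalloproteinase, enamelysin. The next, chr9:7681532-7682983, was 9.83 kb upstream, inside the long noncoding RNA gene AV064505. The last, chr9:7689125-7690305, was 2.38 kb upstream and overlapped AV064505 and the pseudogene Gm19212. One more, chr9:7678002-7678754, 13.7 kb upstream, had a peak in 3 Fast lists and no Fed list.

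The authors' peak scores at these regions varied among the Fast lists. At 9.83 kb upstream of Mmp7 they were 637 and 782 in Fast (-Tetra) lists 1 and 2 and 627 and 135 in Fast (+Tetra), higher than the scores of 90.3%, 80.4%, 84.3% and 42.3% of the peaks of those lists. At 2.38 kb upstream the scores were 381, 268, 233 and 184 in the same order, and at 39.3 kb upstream 154, 308, 143 and 202. The region at 9.83 kb thus had the highest score of the 3 in every Fast list but list 2 of Fast (+Tetra), where it had the lowest. At the Mmp7 start itself, H3K27ac peaks were found only in the 2 Fast (-Tetra) lists, with scores of 52.3 and 83.6. These scores were below those of the 3 upstream regions in the same lists. The peaks at the start also lay within AV064505, which runs to 3.54 kb beyond the start, so they cannot be assigned to Mmp7 alone.

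A window with at least 1 region of this kind, in all Fast and no Fed H3K27ac lists, was found for 3.18% of all genes, and among the marker genes for Mmp7. The reverse was found for none of the 9 and for 0.772% of all genes, and in H3K9ac either kind for none of the 9 (0.644% of all genes for Fast, 0.745% for Fed). Windows with at least 3 such regions were found for 5 genes, or 0.0228% of all: Sypl, Rad51b, Mmp20, Mmp7 and Zbtb16. Mmp20 shares the regions of Mmp7. All 3 Mmp7 regions kept peaks in 4 Fast and 0 Fed lists when every list was cut to the same 32392 top-scoring peaks, and also when only peaks at least 500 bp wide were used. With peaks above each list's median score, the region at 9.83 kb had a peak in 3 Fast lists and the other regions still in 4.

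**Figure D3:**
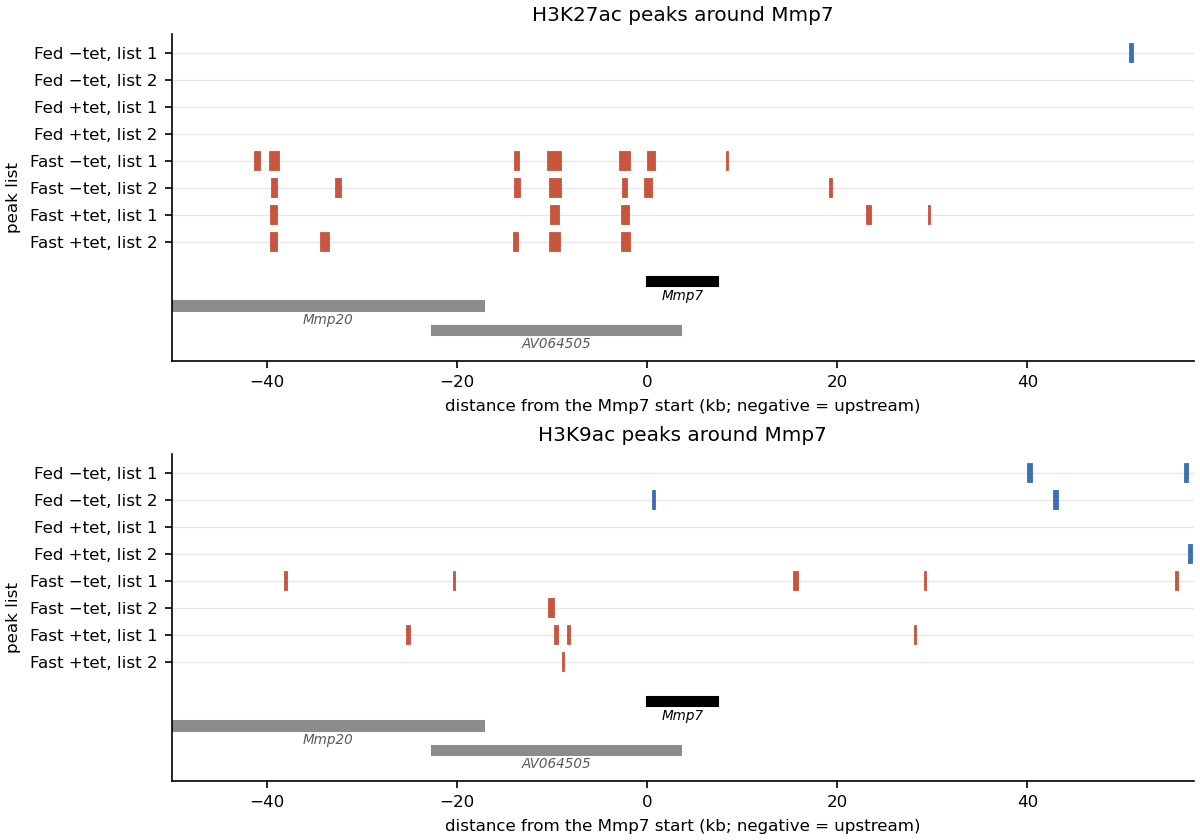
Peaks around the Mmp7 start in each list, H3K27ac above and H3K9ac below, as boxes drawn to scale along the distance from the start in kb (negative is upstream). Fed lists are blue and Fast lists red, with Mmp7 in black and its neighbours Mmp20 and AV064505 in grey. The Fast H3K27ac lists share peaks at 39.3, 9.83 and 2.38 kb upstream, where the Fed lists have none.

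H3K9ac was sparser around Mmp7. The covered length was 1.04 and 0.821 kb in Fed (-Tetra), 0 and 0.473 kb in Fed (+Tetra), 1.61 and 0.676 kb in Fast (-Tetra), and 1.29 and 0.200 kb in Fast (+Tetra). The feeding states overlapped, with a difference of 0.361 kb (exact permutation p = 0.389). With flanks of 25 kb, every Fast list was above every Fed list of the same tetracycline state, as for 4.70% of all genes. The difference was then 0.639 kb (exact permutation p = 0.0556). Without the lists numbered 1, and with flanks of 50 kb, it was -0.209 kb. No H3K9ac region recurred in all 4 Fast lists. Peaks between 8.15 and 10.5 kb upstream of Mmp7 were seen in list 2 of Fast (-Tetra) and in both lists of Fast (+Tetra), and in no Fed list. These peaks did not overlap, so each region there had a peak in a single list. The only H3K9ac peak at the start of Mmp7 was in Fed (-Tetra) list 2, with a score of 109.8.

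Markers of other cells moved in part with the H3K27ac peaks at Mmp7. Of 11 immune genes, 2 to 5 were marked in the Fed H3K27ac lists and 4 to 6 in the Fast lists. The shares of all genes were 44.0% to 49.9% in Fed and 42.9% to 50.7% in Fast lists. More Fast than Fed lists marked 4 of the 11, and more Fed lists 2, against 13.2% and 9.44% of all genes. In H3K9ac the numbers were 4 and 1, against 23.8% and 20.7% of all genes. Ptprc, which encodes the leukocyte antigen CD45, was marked in all 4 Fast and in no Fed H3K27ac list, as were 0.0959% of all genes. Itgam and Cd8a were marked in 4 Fast and 2 Fed lists each, while Cd79a was marked in all 8 lists and Cd3e in 2 Fast and 4 Fed lists. In H3K9ac, Ptprc was marked in no list, Cd8a in 1 Fast and 1 Fed list, and Itgam in 1 Fast and no Fed list. Cd4, Csf1r and Ly9 were marked in no H3K27ac list. The part of immune cells in the Mmp7 result was not tested. Which cells the Mmp7 peaks came from cannot be told in these bulk crypt preparations. Nor can more Paneth cells be told apart from more acetylation per Paneth cell.

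The promoter of Mmp7 is printed because H3K27ac peaks met it in Fast (-Tetra), with that of Defa30, an alpha-defensin gene that had no peak at either end, and that of Lyz1, the marker gene marked in most lists. The sequences are from RefSeq, build GRCm38.p6, and each runs 5′ to 3′ on the strand of the gene. Capitals mark matches to TATAAA, the TATA box, and to TCAAAG, the reverse complement of the core CTTTGA of sites for TCF and LEF factors, which act in Wnt signalling. For Mmp7 the 250 bases before the start, chr9:7691840-7692089, are followed by the first 25 bases from the start, chr9:7692090-7692114. For Defa30 the 250 bases are chr8:21134400-21134649 on the plus strand, and for Lyz1 chr10:117292869-117293118 on the minus strand.
Mmp7 before the start: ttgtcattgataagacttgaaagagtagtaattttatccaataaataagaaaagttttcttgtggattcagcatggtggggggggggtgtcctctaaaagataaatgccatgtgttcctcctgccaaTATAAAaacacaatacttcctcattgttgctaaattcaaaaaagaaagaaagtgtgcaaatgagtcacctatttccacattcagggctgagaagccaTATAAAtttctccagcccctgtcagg
Mmp7 from the start: aaacaTCAAAGtagctctgagaaca
Defa30 before the start: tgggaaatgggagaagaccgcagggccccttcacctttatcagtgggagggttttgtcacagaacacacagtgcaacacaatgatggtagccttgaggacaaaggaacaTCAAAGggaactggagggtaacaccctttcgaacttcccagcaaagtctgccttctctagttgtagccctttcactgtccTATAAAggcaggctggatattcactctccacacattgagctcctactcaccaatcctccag
Lyz1 before the start: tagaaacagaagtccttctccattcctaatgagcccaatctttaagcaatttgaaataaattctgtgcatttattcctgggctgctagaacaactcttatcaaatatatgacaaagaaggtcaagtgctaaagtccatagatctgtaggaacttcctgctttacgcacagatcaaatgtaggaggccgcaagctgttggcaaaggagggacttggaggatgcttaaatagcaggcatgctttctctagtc

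A promoter was given for 6 of the 9 genes: Lyz1, Mmp7, Defa30, Ang4, Itln1 and Mptx2. From 250 bases before to 50 after the start, CTTTGA or its complement was present in Mmp7 and Defa30, and in 16.2% of the 27025 promoters of the table. TATAAA on either strand was present in the same genes and in 14.2% of promoters. TTTATGG, a CDX-type motif, was present in Itln1 (2.76% of promoters), and CAGCTG, an E box of the ATOH1 type, in Lyz1 (16.1%). RefSeq lists a second Mmp7 promoter, chr9:7692091-7692390, with a CpG observed over expected ratio of 0.345 and a GC content of 52.0%, and the ranges and medians that follow take the upstream one printed above. The marker gene promoters were poor in CpG: the observed over expected CpG ratio ranged from 0 to 0.286, with a median of 0.147 against 0.389 over all promoters. GC content ranged from 35.0% to 51.0%, with a median of 42.3% against 52.7% over all promoters.

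Lyz1 (gene ID 17110, chr10:117287795-117292868, minus strand) encodes the Paneth cell lysozyme, which cleaves bacterial cell walls, and was marked in more lists than any other marker gene. An H3K27ac region at its start, chr10:117292277-117293142, had a peak in list 2 of Fed (-Tetra), list 1 of Fast (-Tetra), list 2 of Fed (+Tetra) and list 1 of Fast (+Tetra), with scores of 78.1, 105, 71.4 and 53.2. Lyz1 was thus marked in 2 Fed and 2 Fast lists, and in H3K9ac also in 2 of each. No other gene of the 21888 had the same pattern over the 16 lists, but the share of all genes with a pattern of their own is not given. H3K27ac covered 0 and 0.561 kb of its window in Fed (-Tetra), 0.596 and 1.56 kb in Fast (-Tetra), 0.517 and 0.630 kb in Fed (+Tetra), and 1.44 and 0 kb in Fast (+Tetra). The states overlapped, with means of 0.427 kb in Fed and 0.90 kb in Fast (exact permutation p = 0.333). The H3K9ac means were 0.886 and 1.58 kb (p = 0.556 in the same permutation test). Lyz2, the lysozyme gene of macrophages and a near copy of Lyz1, lies within the window, beyond the far end of Lyz1. Its ends were marked in 1 Fast and no Fed list in H3K27ac and in 2 Fast and 1 Fed list in H3K9ac.

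Pla2g2a (gene ID 18780, chr4:138831857-138835189) encodes the secreted phospholipase A2 that kills bacteria by attacking their membranes. The gene is known to be disrupted by a frameshift in C57BL/6 mice, and RefSeq lists it as a transcribed pseudogene. It lies inside the gene Pla2g5, which encodes another secreted phospholipase. H3K27ac covered 1.76 and 3.08 kb of the Pla2g2a window in Fed (-Tetra) and 1.65 and 2.36 kb in Fed (+Tetra). It covered 7.33 and 7.76 kb in Fast (-Tetra), and 4.61 and 1.29 kb in Fast (+Tetra). The Fast (-Tetra) lists were far above all Fed lists, but list 2 of Fast (+Tetra) was the lowest of all 8. The means were 2.21 kb in Fed and 5.25 kb in Fast, a difference of 3.04 kb (exact permutation p = 0.167, adjusted p = 0.788), of 5.13 kb without and 0.945 kb with tetracycline. Whether the difference depended on tetracycline was not tested.

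2 clusters of peaks made up most of the Pla2g2a coverage. Beyond the gene, a region at the start of Pla2g2e, chr4:138877413-138878628, had an H3K27ac peak in all 8 lists, and a second region within Pla2g2e, chr4:138880563-138881672, in 3 Fast and 4 Fed lists. Pla2g2e encodes a further secreted phospholipase of the same gene cluster. Within Pla2g5, the region chr4:138825439-138828637, centred 4.82 kb from the nearer end of Pla2g2a, had a peak in both Fast (-Tetra) lists (scores 219 and 474), in list 1 of Fast (+Tetra) (score 125) and in list 2 of Fed (-Tetra) (score 55.2). Fast and Fed lists of Pla2g2a thus differed at the near cluster, while the peaks at Pla2g2e were shared by nearly all lists. With flanks of 25 kb, which leave Pla2g2e out, every Fast list of Pla2g2a was above every Fed list of the same tetracycline state. So it was for 7.69% of all genes. The Pla2g2a difference was then 2.58 kb (exact permutation p = 0.0556). In list 2 of Fast (+Tetra) the separation rested on a peak of 521 bp with a score of 64.6, outside the near cluster. In H3K9ac the Pla2g2a window had 0.913 and 3.15 kb in Fed (-Tetra), 3.63 and 1.06 kb in Fed (+Tetra), 6.00 and 0 kb in Fast (-Tetra), and 3.15 and 2.01 kb in Fast (+Tetra), with no separation of the states (p = 0.722 in the permutation test).

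**Figure D4:**
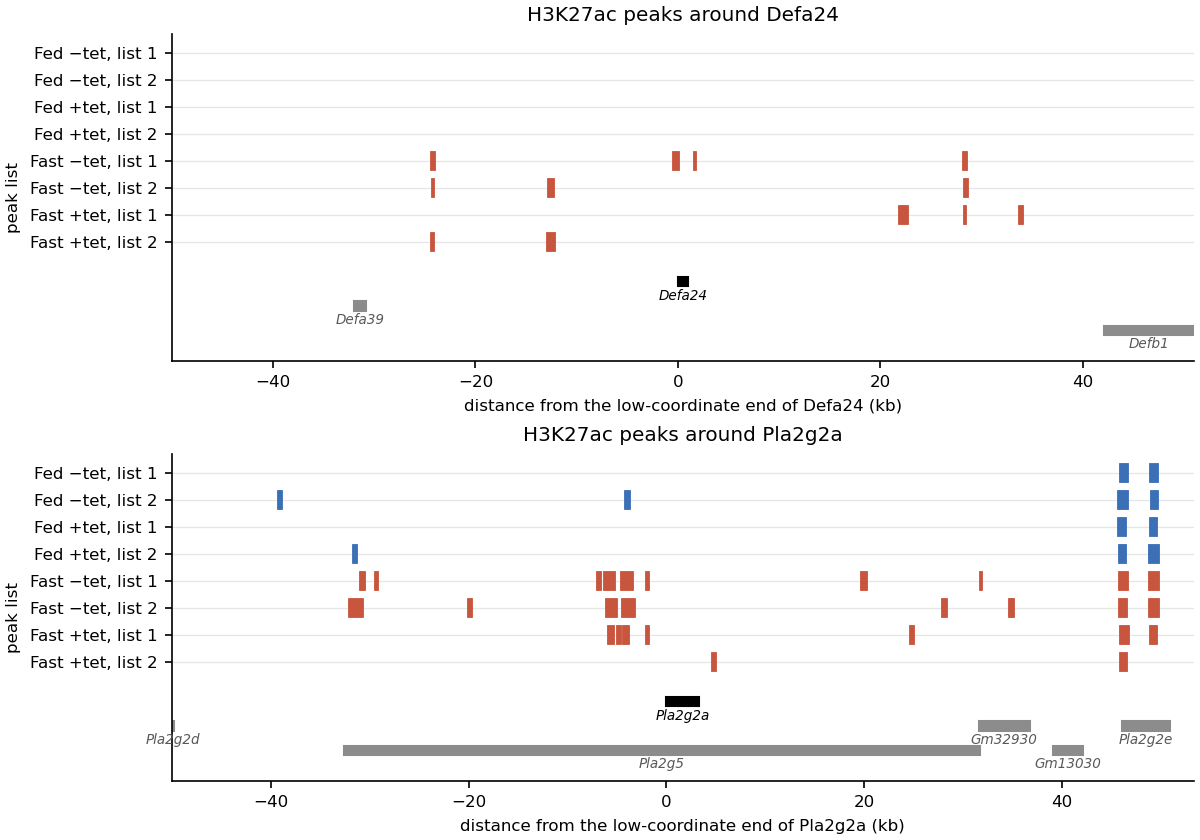
H3K27ac peaks around Defa24 (above) and Pla2g2a (below) in each list, as boxes drawn to scale along the distance in kb from the end of the gene with the lower coordinate. Fed lists are blue, Fast lists red, the gene itself black and its protein-coding or lncRNA neighbours grey. The Defa24 window has peaks only in Fast lists, and the Pla2g2a window has a near cluster in 3 Fast lists and 1 Fed list and a far one at Pla2g2e in all 8.

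The alpha-defensin genes Defa17, Defa24 and Defa30 encode small cationic peptides that permeabilise bacterial membranes. All lie on chromosome 8, Defa17 (gene ID 23855) at chr8:21655767-21656736, Defa24 (gene ID 503491) at chr8:21734494-21735471 and Defa30 (gene ID 100038927) at chr8:21134650-21135598. Defa17 and Defa24 are 77.8 kb apart and their windows share 22.2 kb, which held no peak region, so their covered lengths were counted from different peaks. In Fed lists no H3K27ac peak fell in any of the 3 windows. Defensin genes are near copies of each other, so their reads may be hard to place, and how such reads were handled is not given in the sources used here. The promoter of Defa30 was 55.5% to 74.3% identical to those of 15 other alpha-defensin genes in the table, with a median of 71.7%.

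Around Defa24, H3K27ac covered 1.92 and 1.69 kb in Fast (-Tetra) lists 1 and 2, 1.81 and 1.31 kb in Fast (+Tetra), and 0 kb in all 4 Fed lists. Such a window, with peaks in every Fast list and none in Fed lists, was found in H3K27ac for Defa24 and for 0.27% of all genes. The difference of 1.68 kb was at the smallest p of the exact permutation test (0.0556, adjusted p = 0.633), and was 1.80 kb without and 1.56 kb with tetracycline. With lists cut to equal length by score it was 0.702 kb (exact permutation p = 0.333) and the states overlapped. The peaks lay at several places, and no single region had one in all 4 Fast lists. Regions at chr8:21709972-21710443, in the pseudogene Gm7869, and at chr8:21762592-21763191 had peaks in 3 Fast lists each, with scores from 65.9 to 93.8. Their scores were thus all far below those at 9.83 kb upstream of Mmp7 in 3 of the 4 Fast lists. In the Fed lists the nearest H3K27ac peak was 67.6 to 277 kb from Defa24.

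A peak at an end of Defa24 was present in H3K27ac in Fast (-Tetra) list 1, with a score of 109, and in H3K9ac in Fast (-Tetra) list 2, with a score of 55.0. H3K9ac coverage of the Defa24 window was 0 in both Fed (-Tetra) lists, 1.15 and 0.569 kb in Fast (-Tetra), 0.595 and 0.841 kb in Fed (+Tetra), and 0.200 and 0 kb in Fast (+Tetra). Fast was higher without tetracycline and lower with it, and the mean difference was 0.120 kb (p = 0.889 in the permutation test).

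Defa17 and Defa30 had fewer peaks. For Defa17, H3K27ac covered 0.540 and 0.692 kb in Fast (-Tetra), 0.520 and 0 kb in Fast (+Tetra), and 0 in every Fed list (mean difference 0.438 kb, exact permutation p = 0.167). 2 of the 3 peaks were at Defa26, another alpha-defensin gene, in the region chr8:21617700-21618391. For Defa30 the covered length was 0.686 and 0 kb in Fast (-Tetra), 0.874 and 0 kb in Fast (+Tetra), and again 0 in every Fed list (p = 0.5 in the permutation test). Both Defa30 peaks formed 1 region, chr8:21118678-21119601, 15.5 kb upstream of the start, and came from the lists numbered 1. H3K9ac covered 0.230 kb of the Defa17 window in Fast (-Tetra) list 1 and nothing in the other 7 lists. H3K9ac around Defa30 averaged 0.225 kb in Fed and 0.943 kb in Fast (p = 0.222, exact permutation), with 2.33 kb in list 1 of Fast (-Tetra), the longest of all H3K9ac lists.

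Ang4 (gene ID 219033, chr14:51763892-51773590, minus strand) encodes angiogenin 4, a microbicidal ribonuclease. H3K27ac covered 1.47 and 0 kb of its window in Fast (-Tetra), 1.70 and 1.47 kb in Fast (+Tetra), and 0 in all 4 Fed lists. List 2 of Fast (-Tetra) thus overlapped the Fed lists, and the difference of 1.16 kb had an exact permutation p of 0.167. A region at chr14:51793681-51794799, 20.7 kb upstream and at the edge of the pseudogene Ear-ps4, had peaks in 3 Fast lists with scores of 146, 112 and 78.8. Nearest peaks in the Fed lists were 110 to 111 kb from Ang4.

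In H3K9ac the Ang4 window had 0 kb in both Fed (-Tetra) lists, 0.588 and 0 kb in Fed (+Tetra), 0.599 and 0.559 kb in Fast (-Tetra), and 1.47 and 0.656 kb in Fast (+Tetra). Within each tetracycline state every Fast list was above every Fed list, at the smallest p of the exact permutation test (0.0556, adjusted p = 0.875), with means of 0.147 and 0.821 kb. None of the 10 H3K9ac regions in the Ang4 window had a peak in more than 1 list, so the lists were covered at different places. With top-scoring peaks only, or with peaks at least 500 bp wide, the states no longer separated for Ang4.

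Itln1 (gene ID 16429, chr1:171518123-171535325, minus strand) encodes intelectin 1, a lectin that binds microbial sugars. Its ends were marked in none of the 16 lists, but its window was covered in all of them. H3K27ac covered 4.46 and 6.39 kb in Fed (-Tetra), 6.18 and 6.39 kb in Fast (-Tetra), 2.74 and 5.33 kb in Fed (+Tetra), and 4.82 and 5.27 kb in Fast (+Tetra), with overlap of the states (p = 0.444, exact permutation). Most of that length belonged to other genes' surroundings. The region chr1:171501272-171504809 at Alyref2, which encodes an mRNA export factor, had a peak in all 8 lists of H3K27ac, with scores from 501 to 3123, and the region chr1:171501459-171504639 at the same gene in all 8 of H3K9ac. The region chr1:171477551-171479365, nearest to F11r and 13.0 kb from it, had a peak in all 8 H3K27ac lists and scored from 81.1 to 386 in Fed and from 457 to 1077 in Fast lists. Scores were not put on a common scale between lists, and how many regions have score ranges that differ in this way was not counted.

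Inside Itln1, H3K27ac peaks were found in Fed lists alone. The region chr1:171526950-171527720, within the gene body, had an H3K27ac peak in 3 Fed lists, with scores of 92.9, 111 and 135, and in no Fast list. These scores were higher than those of 24.8%, 38.1% and 34.5% of the peaks of their lists. How many regions over the genome have these list counts is not given. H3K27ac peaks in the Itln1 body were found in 3 Fed and 0 Fast lists, and H3K9ac peaks in 1 Fed and 3 Fast lists. The marks thus differed in which state had them, and no region in the body recurred in all lists of a state.

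Mptx2 (gene ID 100504232, chr1:173274461-173277756, minus strand) encodes a mucosal pentraxin of the C-reactive protein family. No H3K27ac list had a peak in its window, as for 7.93% of all genes, and the nearest H3K27ac peak was 109 to 564 kb away. H3K9ac covered 0 and 0.342 kb in Fed (-Tetra), 0 and 0.502 kb in Fast (-Tetra), 0 and 0.613 kb in Fed (+Tetra), and 0.276 and 0 kb in Fast (+Tetra). These came from 5 regions with a peak in 1 list each, and the means of 0.239 kb in Fed and 0.195 kb in Fast did not separate (exact permutation p = 0.944).

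Over all 9 windows, 62 H3K27ac regions were found, of which 46 (74.2%) had peaks in Fast lists alone and 5 (8.06%) in Fed lists alone. Over the genome the shares were 49.6% and 10.2% of 112301 regions. Regions found in every Fast list but no Fed list were 3 of 62 (4.84%), all near Mmp7, and 0.40% over the genome. Of 121 H3K9ac regions, 65.3% were in Fast lists alone and 25.6% in Fed lists alone, against 66.4% and 22.1% over the genome. Most H3K9ac regions of the windows, 87.6%, came from a single list (84.4% over the genome), as did 59.7% of H3K27ac regions (53.1%). Of the 134 H3K27ac peaks in the windows, 61 came from the 2 Fast lists numbered 1, and so did 80 of the 152 H3K9ac peaks, 17 of which were 200 bp wide, the narrowest width in the lists. An H3K9ac region overlapped 35.5% of the H3K27ac regions in the windows, against 45.5% over the genome.

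With and without tetracycline, the number of marker genes marked at an end differed by less than the spread between lists. An average of 1.25 of the 9 was marked per H3K27ac list without and 0.5 with tetracycline, and 1.5 and 1 per H3K9ac list. Mmp7 and Defa24 were marked in more H3K27ac lists without tetracycline, as were 13.9% of all genes, and no marker gene in more lists with it (8.19% of all genes). In H3K9ac, Mmp7, Defa24 and Pla2g2a were marked in more lists without (20.8% of all genes) and Ang4 in more lists with tetracycline (22.2%). The number of windows with an H3K27ac peak averaged 5 without and 4.75 with tetracycline.

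Other genes known for a role in Paneth cells were looked at in the same way. Of 33 such genes, 13 to 19 were marked in a Fed H3K27ac list and 19 to 23 in a Fast list, and 10 to 20 and 17 to 20 in H3K9ac. In H3K27ac 13 of the 33 were marked in more Fast than Fed lists, 1 in more Fed lists and 19 in equal numbers, where 13.2% of all genes were marked in more Fast and 9.44% in more Fed lists. In H3K9ac the numbers were 11, 3 and 19, against 23.8% and 20.7% of all genes. None of them was marked in all lists of one feeding state and at most 1 of the other.

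Among 10 regulators, 5 were marked in all 8 H3K27ac lists, as were 33.6% of all genes. They included Xbp1, the transcription factor of the secretory stress response, and Ephb2 and Ephb3, receptors that position cells along the crypt. Sox9, a transcription factor needed for Paneth cells, was marked in 4 Fast and 3 Fed H3K27ac lists and in all H3K9ac lists. Atoh1, the determinant of secretory cells, was marked in 4 Fast and 2 Fed H3K27ac lists, and Bhlha15, a factor of secretory cell architecture, in 3 and 1. In H3K9ac neither differed, with 1 Fast and 1 Fed list for Atoh1 and 2 and 2 for Bhlha15. Spdef was marked in 1 Fast and no Fed list in H3K27ac, but in no Fast and 2 Fed lists in H3K9ac. Of 6 genes for niche signals and surface proteins, 4 were marked in all 8 H3K27ac lists, again against 33.6% of all genes. They were the Notch ligand genes Dll1 and Dll4, the growth factor gene Tgfa and the surface marker gene Cd24a. Wnt3, which encodes the Wnt ligand of the stem cell niche, was marked in 1 Fast and no Fed list in H3K27ac and in 3 Fast and no Fed lists in H3K9ac.

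Among 7 genes of secretion, autophagy and bacterial sensing, Nod2, Atg5 and Slc30a2 were marked in all 8 H3K27ac lists (33.6% of all genes). Nod2 encodes a sensor of bacterial cell wall, Atg5 an autophagy protein and Slc30a2 a zinc transporter of the granules. Atg16l1 was marked in 3 Fast and 4 Fed H3K27ac lists. Lrrk2 was marked in 1 Fast and no Fed list in H3K27ac, and in no Fast and 1 Fed list in H3K9ac. Of 10 further antimicrobial genes, none was marked in all 8 lists of a mark (33.6% of all genes in H3K27ac, 21.1% in H3K9ac). In H3K27ac, 6 were marked in no list (39.4% of all genes). Defa5, Defa20 and Defa23 were marked in none of the 16 lists, a pattern they shared with Defa17, Defa30, Mptx2 and Itln1. For each of these marker genes, 4907 other genes of the 21888 had it. Reg3b and Reg3g, genes for antibacterial C-type lectins, were marked in 3 Fast and 1 Fed and in 2 Fast and 1 Fed H3K27ac lists. In H3K9ac Reg3b was marked in 2 Fast lists, Reg3g in 1 Fast list, and neither in a Fed list. Mptx1 was marked in 1 Fed and no Fast list in H3K9ac.

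Goblet cells, the mucus-secreting relatives of Paneth cells, did not show one direction in both marks. Of 9 goblet cell genes, 4 were marked in more Fast and 2 in more Fed H3K27ac lists, against 13.2% and 9.44% of all genes. In H3K9ac 1 was marked in more Fast lists and 5 in more Fed lists, against 23.8% and 20.7% of all genes. Between 4 and 6 of them were marked in an H3K27ac list. The difference between goblet and Paneth cell genes was not tested.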

How the data were processed

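The deposited files are 16 peak lists, 2 for each of 8 samples. Per the submitters' processing notes, FastQC, Bowtie and SAMtools were used with build mm10. Peak names begin with MACS and each list is named as downsampled, so the authors called peaks list by list. Tool versions, the cutoff for a peak and whether IgG libraries served as background are not given in the sources used here. Each peak has a score given by the authors, of unstated unit. It was used to describe peaks, and to rank or filter them within a list. Read depth is unknown, and no interval that needs it is given.

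Gene positions came from a RefSeq table for GRCm38.p6, with 21887 protein-coding genes and Pla2g2a, and strand from RefSeq promoters for 6 of the 9 genes. Covered length was the union of peaks in gene body and 50 kb flanks, compared between 4 Fast and 4 Fed lists by exact permutation within tetracycline states and adjusted by Benjamini-Hochberg over 21888 genes. The SD between lists pools the 4 groups of a mark. Counts over the marker genes have no test. The permutation test was not run on simulated lists. Only the separation of every Fast from every Fed list was, with 200 windows emptied of peaks and then given a peak in every Fast list. All 200 were called in each mark, which this design fixed in advance. So were 1685 other genes in H3K27ac and 2500 in H3K9ac, of 21888, where the real lists gave 1862 and 1178 genes. The 9 genes and all lists of genes were chosen with earlier results of these data known. All 9 are named. Other Paneth cell genes were to be named where marked in all 4 lists of one feeding state and at most 1 of the other, or in none of 16, and regions where a peak was in all 8 lists, or in all 4 of one state and none of the other. The remaining genes and regions named were chosen after their values were seen. Protein identity was planned and is not analysed here, and 1 gene of the immune list is not reported here. Alternatives were a distance of 500 bp or 2.5 kb, the start end only, defensins as 1 locus, flanks of 25 kb, equal numbers of top-scoring peaks, the upper part of each list by score, peaks at least 500 bp wide, lists of 1 number left out, and differences within list numbers. Scripts ran under Python 3.11.15 with statsmodels 0.14.6, scipy 1.17.1, pandas 2.3.3, numpy 2.4.6 and matplotlib 3.10.9.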

Additional observations from a re-analysis of the deposited data

Results flagged for a closer look

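H3K9ac coverage of the Defa24 window moved in opposite directions with fasting in the 2 tetracycline states. Without tetracycline, both Fast lists were above both Fed lists, by 0.858 kb on average. With tetracycline, both Fast lists were below both Fed lists, and the difference was -0.618 kb. Whether the 2 differences differ was not tested. The 9 H3K9ac regions of this window each had a peak in a single list.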

How the results depend on the processing

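Marker genes marked at an end, Fast minus Fed, changed for H3K27ac from 0.75 to 2.0 at a distance of 2.5 kb and ranged from -0.50 to 2.0 with the lists of 1 number left out. For H3K9ac the start end alone gave -0.25, and leaving lists out 0 to 1. With minus without tetracycline in H3K9ac was 0.25 at 500 bp, 0.25 for the start end alone and 0.5 with top-scoring peaks, against -0.50 with all peaks, and ranged from -2.0 to 1.0 with lists left out. Marker genes with every Fast list above every Fed list of the same tetracycline state numbered 1 (Mmp7) in H3K27ac with top-scoring peaks, against Mmp7 and Defa24, and 0 in H3K9ac with top-scoring peaks or peaks at least 500 bp wide. With flanks of 25 kb, Mmp7 replaced Ang4 in H3K9ac. With lists left out these numbers were 2 to 8 in H3K27ac and 1 to 5 in H3K9ac, but the lists numbered 1 alone separated 59.9% and 77.6% of all genes. Alternatives chosen after the data were seen were the upper part of each list for these separated genes, and all those for windows with a peak and for regions. With the upper part, Itln1 replaced Defa24 in H3K27ac and Mmp7 replaced Ang4 in H3K9ac. Windows with a peak, Fast minus Fed, gave 2.25 with top-scoring peaks and 1.5 with the upper part in H3K27ac, 0 with top-scoring peaks in H3K9ac, and 2.5 to 5.0 and 0 to 3.5 with lists left out. Regions seen in every Fast but no Fed list numbered 6 to 10 in H3K27ac and 0 to 2 in H3K9ac with lists left out, of which 3 to 4 in H3K27ac were near Mmp7, and the reverse 0 to 3 and 0 to 1. Covered length changed sign under settings that were not among those chosen after the data were seen, as follows, in kb, Fast minus Fed. In H3K27ac, Itln1 was -0.265 with flanks of 25 kb and -0.0265 to 1.90 with lists of 1 number left out, and Lyz1 -0.129 with top-scoring peaks. In H3K9ac, Mptx2 was 0.00600 with 25 kb, 0.126 with wide peaks and -0.227 to 0.138 with lists left out. Top-scoring H3K9ac peaks gave -0.0413 for Lyz1, -0.00600 for Defa30 and -0.748 for Pla2g2a, and wide ones -0.147 for Lyz1 and -0.00650 for Defa24. With lists left out, of which those numbered 1 gave the lower value, H3K9ac gave -0.572 to 1.95 for Lyz1, -0.209 to 0.931 for Mmp7, -0.506 to 2.64 for Itln1, -0.136 to 0.376 for Defa24 and -1.10 to 2.31 for Pla2g2a. The cause of these changes was not tested. The direction for Mmp7 in H3K27ac held under every alternative run for it (3.30 to 4.60 kb). The list numbers, given only in the names of the lists, are no statement of pairing. As a replicate block they left the difference for Mmp7 in H3K27ac at 4.52 kb, and the smallest p of the 16 sign arrangements is 0.125.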
